A study of Homo sapiens with 4 samples.

Results

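Among the ZHX2 ChIP-seq peaks of DB cells, a set of narrow regions was chosen by length: peaks shorter than 300 bp on chromosomes 1 to 22, whatever their annotation. They numbered 133 of the 8871 peaks in the authors' deposited table, or of 8581 on those chromosomes. DB is an established human line of diffuse large B-cell lymphoma. The study set DB cells labelled ZHX2 against DB cells labelled ZHX2_Mut4, called Mut4 here, with 1 ChIP library and 1 input library per arm. In both arms chromatin was fixed with formaldehyde, sonicated and pulled down with the same antibody against ZHX2. The labels describe neither the residues altered in Mut4, nor how either protein was introduced, nor how much endogenous ZHX2 the antibody would also bind. The table compared the 2 ChIP libraries, and the inputs were not used here.

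ZHX2 is a zinc-finger and homeobox protein that acts in the nucleus as a regulator of transcription, often described as a repressor. ZHX proteins were first found as partners of NFY, the factor that binds CCAAT boxes in promoters. In ChIP-seq a peak is a stretch where sequenced fragments pile up, and its length depends on how far the pile-up exceeds the background that the peak caller allows. A site held directly in a promoter and a stretch of repeated DNA to which reads of several copies align can both appear as a peak.

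All 133 short peaks were listed as found only in Mut4 (100%, exact 95% interval 97.3% to 100%). They made up 133 of the 147 Mut4-only peaks on chromosomes 1 to 22 (90.5%, 84.5% to 94.7%). No other result could follow from the length limit, since the shortest ZHX2-only peak of the table measured 568 bp and the shortest common peak 570 bp. The selection on length was therefore also a selection on peak group, and the reads, folds and adjusted p-values of the short peaks are given as a description, with no test. With 1 ChIP library per arm there was no replicate error, so none of the differences was tested between conditions. For the same reason, all intervals are exact 95% intervals that cover counting error only. The reads carry no molecular identifiers and may repeat a molecule, which would make the intervals of folds too narrow.

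**Figure D1:**
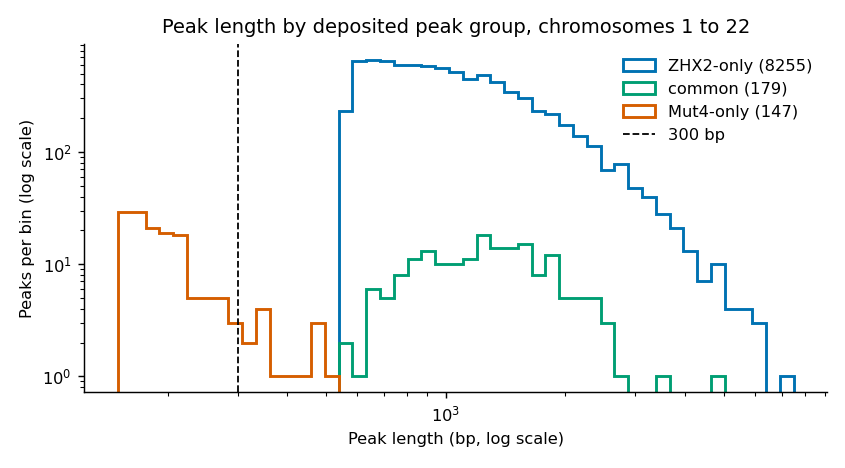
Number of listed peaks on chromosomes 1 to 22 (vertical, log scale) by peak length in bp (horizontal, log scale), drawn separately for 8255 ZHX2-only, 179 common and 147 Mut4-only peaks; the dashed line stands at 300 bp. Every peak left of the line is Mut4-only, and the ZHX2-only and common peaks begin at 568 and 570 bp.

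Short peaks had a median length of 181 bp (quartiles 164 and 207), between 154 and 295 bp. There were 92 under 200 bp, 32 from 200 bp to below 250 bp and 9 from there up to the limit. The shortest was the FOXRED2 promoter peak at 154 bp. Next came 6 peaks of 155 bp, among them the TIMM22 promoter and AC084121.13 peaks. Just inside the limit lay peaks at DUX4L26 (295 bp) and FTLP17 (286 bp), and 268 bp peaks nearest to AC215524.1 and AL096828.2. Just outside it lay an intronic AC024730.1 peak of 301 bp with 3 ZHX2 and 21 Mut4 reads, an RFX2 promoter peak of 320 bp with 5 and 43, and a DUX4 peak of 321 bp with 30 and 97. These outside neighbours were Mut4-only too, so the values ran on across 300 bp without a break in peak group.

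Promoter peaks are shown first, because their sequence beside a gene could be read. RefSeq promoter windows (GRCh38.p14, 250 bases before to 50 after a start) overlapped 15 of the 29 promoter-class short peaks at their own gene. The lines give stretches that lie in the peak, before the gene's RefSeq start and outside every RefSeq gene, on the strand of the gene, 5′ to 3′. Of the genes with such a stretch, those with the longest are shown, a choice made after the values had been seen. Stretches that lie within an annotated gene body, such as those at MIB2, ZNF444, DNAJC28 and RPN2, were left out. Capitals mark the box CCAAT of NFY, the box GGGCGG that Sp and KLF factors bind (called a GC box) or the core CCGGAAG of ETS factors, on either strand, so that a motif on the other strand appears as its reverse complement.

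TIMM22, chr17:996959-997113, + strand: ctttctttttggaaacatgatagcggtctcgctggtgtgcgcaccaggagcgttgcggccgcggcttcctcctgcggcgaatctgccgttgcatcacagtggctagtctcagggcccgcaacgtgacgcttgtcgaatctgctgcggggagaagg
FOXRED2, chr22:36507060-36507213, - strand: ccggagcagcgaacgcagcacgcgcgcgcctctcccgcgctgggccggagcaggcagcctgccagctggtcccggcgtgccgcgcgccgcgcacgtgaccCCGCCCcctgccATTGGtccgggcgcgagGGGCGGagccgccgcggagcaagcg
SURF6, chr9:133336234-133336438, - strand: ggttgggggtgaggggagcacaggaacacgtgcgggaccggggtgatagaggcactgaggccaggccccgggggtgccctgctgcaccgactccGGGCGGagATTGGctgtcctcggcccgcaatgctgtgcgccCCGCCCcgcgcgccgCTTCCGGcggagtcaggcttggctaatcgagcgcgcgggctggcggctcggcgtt
TUFM, chr16:28846349-28846443, - strand: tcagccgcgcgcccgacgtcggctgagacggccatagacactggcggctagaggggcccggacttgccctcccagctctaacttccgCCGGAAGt
NELFE, chr6:31958972-31959028, - strand: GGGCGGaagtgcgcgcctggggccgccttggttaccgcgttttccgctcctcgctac
POP7, chr7:100706066-100706120, + strand: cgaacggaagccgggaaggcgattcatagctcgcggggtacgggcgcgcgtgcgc

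The FOXRED2 and SURF6 stretches each held 1 CCAAT and 2 GC boxes, and SURF6 also held 1 ETS core. TUFM held 1 ETS core and NELFE 1 GC box, while the letters searched for were in neither TIMM22 nor POP7. GC content ran from 60.6% in TIMM22 to 80.5% in FOXRED2. The stretches span peaks with very different reads, as described below.

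Across whole windows, the 16 genes whose own RefSeq window overlapped a short peak were set beside 3466 windows of genes with a longer promoter peak and 26246 windows in all. Some of the 16 windows shared few bases with the peak, such as 12 at ZNF414 and 13 at CD320. A motif counted in a window can therefore lie outside the short peak. Both strands were searched, and these motifs can share bases where they meet. CCAAT stood in 7 of 16 windows (43.8%, 19.8% to 70.1%), against 34.8% at longer promoter peaks and 35.4% of all windows. GGGCGG stood in 14 (87.5%, 61.7% to 98.4%), against 72.6% and 44.7%. CCGGAAG stood in 7 (43.8%, 19.8% to 70.1%), against 19.3% and 10.7%, and the E-box CACGTG in 4 (25.0%, 7.27% to 52.4%), against 10.9% and 7.35%. Median GC content was 65.8%, near the 67.0% of longer promoter peaks and above the 58.3% of all windows, and a median window held 27.5 CpG against 29 and 14. With 16 windows the intervals are wide, and the homeobox core TAATTA, the CRE TGACGTCA, AP-1 as TGANTCA and TATAAA were each in 0 of 16, which allows a share of up to 20.6%. At longer promoter peaks their shares were 1.70%, 4.41%, 3.55% and 5.08%, all below that limit. Nothing is read from these counts of 0.

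Reads per peak and library were solved from each peak's deposited log2 values. They summed to 541900 in ZHX2 and 271694 in Mut4 over all listed peaks, and the authors' scaling set the sizes at a ratio of 2.14. Short peaks were thin in both libraries: the median was 5 reads in ZHX2 (quartiles 2 and 11, range 0 to 1466) and 18 in Mut4 (quartiles 15 and 25, range 12 to 1495). No short peak held fewer than 12 Mut4 reads, whereas 80 (60.2%, 51.3% to 68.5%) held 5 or fewer in ZHX2. Together they held 3016 ZHX2 reads (0.557% of the listed total) and 5817 Mut4 reads (2.14%), a scaled ratio of 4.13 of Mut4 over ZHX2. The strongest peak alone, nearest to AC069061.1, held 1466 and 1495 of these; without it the sums were 1550 (0.286%) and 4322 (1.59%), and the ratio was 5.97.

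Mut4 had more reads than ZHX2 at 126 short peaks even before scaling, although its listed total was the smaller. The ZHX2 library had more at 6, those at TIMM22, NELFE, LHPP, ZNF414, AC215524.1 and AC092296.2. TMEM39B held 18 in each. After scaling, the log2 fold (ZHX2 over Mut4) in the authors' deposited table was negative at all 133, with a median of -3.21 (quartiles -4.01 and -2.34, range -8.90 to -0.06), where longer peaks had a median of 0.02. The counting interval of the fold lay below 1 at 127 short peaks and included 1 at the 6 with more ZHX2 reads.

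Less signal in ZHX2 with an adjusted p under 0.05 was listed by the authors' deposited table for 113 of the 133 (85.0%, 77.7% to 90.6%), beside 3.43% of all listed peaks. A fold past 2 in that direction was listed for 128 (96.2%), beside 5.31%, and past 4 for 109 (82.0%), beside 2.06%. None passed in the other direction. The members were chosen on a product of the same libraries, so nothing is read from these counts. The authors' adjusted p rests on an assumed spread, since neither arm was repeated.

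**Figure D2:**
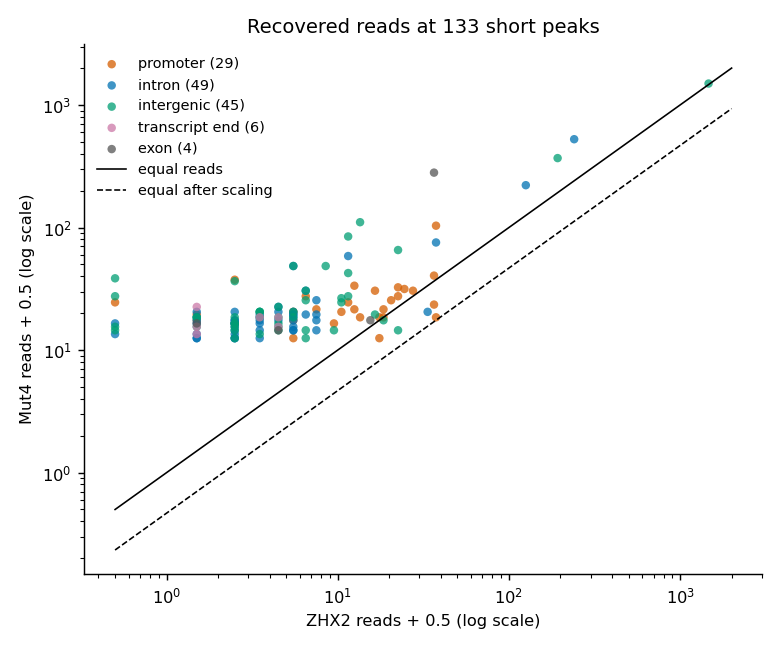
Recovered reads in Mut4 (vertical) against ZHX2 (horizontal) at the 133 short peaks, both plus 0.5 on log scales, coloured by annotation class; the solid line marks equal reads and the dashed line equal reads after scaling by 2.14. Points lie above the solid line at 126 peaks, and most form a band between 12 and 25 Mut4 reads, while the few strong peaks at AC069061.1, DUX4, EMB and DUX4L26 lie to the upper right.

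Reads per 100 bp put the widths on a common footing, although a narrow peak holds only the centre of a pile-up and a wide one its flanks as well. Short peaks held a median of 9.47 Mut4 reads per 100 bp (quartiles 8.21 and 13.3), against 2.11 in longer peaks (1.51 and 2.90). In ZHX2 the medians were 2.37 and 4.44. In numbers of reads, the median of 18 in Mut4 was reached by many peaks listed for ZHX2 as well: of 8434 longer peaks marked as ZHX2-only or common, 5260 (62.4%) held 18 or more Mut4 reads. Over the 133 short peaks, which share both libraries, the rank correlation of length was 0.19 with Mut4 reads and 0.06 with the log2 fold.

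Short peaks stood away from gene starts more often than longer ones. Promoter class covered 29 (21.8%, 15.1% to 29.8%), against 58.0% of the 8448 longer peaks on these chromosomes (57.0% to 59.1%). Introns held 49 (36.8%, 28.6% to 45.6%) against 17.9%, and intergenic DNA held 45 (33.8%, 25.9% to 42.5%) against 9.73%. Transcript ends held 6 (4.51%) against 4.65%, and exons 4 (3.01%) against 9.65%. By distance, 37 (27.8%, 20.4% to 36.3%) lay within 1000 bp of a start, against 75.7%, and 16 (12%, 7.04% to 18.8%) lay over 100000 bp away, against 1.5%. The closest comparison, the 14 Mut4-only peaks of 300 bp or more, had 9 in promoters (64.3%, 35.1% to 87.2%) with a median log2 fold of -2.69. None of these shares was tested, and peaks of 1 library share their background.

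The nearest annotated genes differed likewise. Protein-coding genes were nearest to 59 short peaks (44.4%, 35.8% to 53.2%), against 77.6% of longer peaks. Genes typed as pseudogenes of any kind, copies of genes that have lost their coding function, were nearest to 31 (23.3%, 16.4% to 31.4%) against 6.43%. Long non-coding RNA genes were nearest to 29 (21.8%) against 12.5%. Genes of other RNA types made up a few more, with 4 snRNA, 4 misc_RNA, 2 miRNA and 1 rRNA gene. By their names, the 4 snRNA genes, such as RNU6-937P, and some misc_RNA genes, such as RN7SL526P, are pseudogene copies too. The count of pseudogenes went by type and leaves them out.

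Every short peak was listed as called in Mut4 and not in ZHX2, so the reads of both libraries were subject to selection. The lowest Mut4 count seen was 12 reads, and the values by class are a description. Promoter short peaks had medians of 13 ZHX2 reads (quartiles 6 and 22, range 0 to 37) and 21 Mut4 reads (18 and 30, range 12 to 103), with a median log2 fold of -1.91 (quartiles -2.65 and -1.31). Intronic ones had 3 (2 and 5, range 0 to 240) and 17 (14 and 20, range 12 to 525), with -3.50. Intergenic ones had 4 (2 and 10) and 18 (15 and 27), also with -3.50.

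Few peaks lay in the other classes. The 6 at transcript ends had 1 to 4 ZHX2 reads and 13 to 22 Mut4 reads, with a median log2 fold of -4.10. The 4 in exons had 1 to 36 (median 9.5) and 14 to 280. ZHX2 reads numbered 5 or fewer at 7 of 29 promoter peaks (24.1%, 10.3% to 43.5%) and at 73 of 104 others (70.2%, 60.4% to 78.8%). Per 100 bp, promoter short peaks had medians of 12.5 Mut4 and 7.27 ZHX2 reads, both above the 2.32 and 4.81 of longer promoter peaks. Outside promoters the medians were 9 and 1.93.

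**Figure D3:**
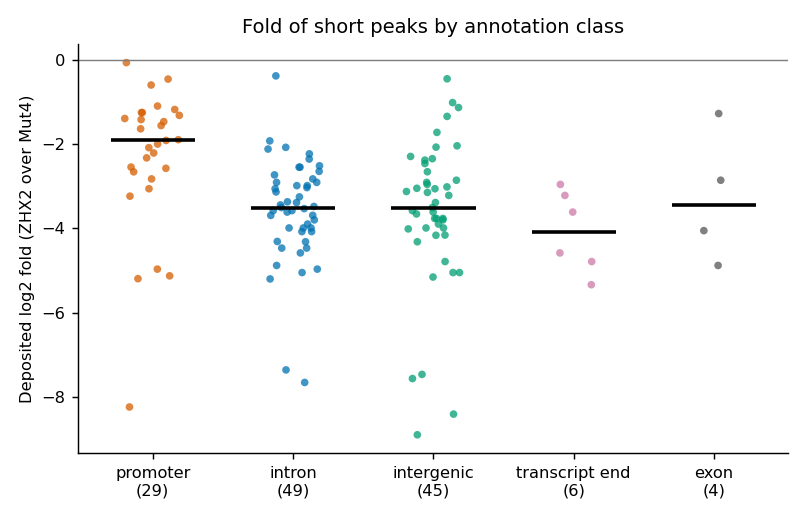
Log2 fold of ZHX2 over Mut4 from the authors' deposited table (vertical) for each of the 133 short peaks, by annotation class (horizontal, with the number of peaks); black bars are medians. All points lie below 0; the promoter median is -1.91, and the medians of intron and intergenic peaks are both -3.50.

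Promoter-class short peaks lay at 29 starts, 23 of them of protein-coding genes, and 18 within 100 bp of the start. Only 4 of these genes, PLK5, MIB2, ZNF444 and LHPP, also had a longer peak. The highest log2 fold was at TIMM22, which encodes a channel subunit that inserts carrier proteins into the inner mitochondrial membrane. Its peak (chr17:996958-997113, 94 bp upstream) held 37 ZHX2 and 18 Mut4 reads, the most ZHX2 reads of a promoter short peak together with FP236383.9. Scaled, the ratio of Mut4 over ZHX2 was 1.04 (0.558 to 1.88), an interval that includes 1. The peak was listed as Mut4-only although it held more ZHX2 than Mut4 reads before scaling.

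NELFE and LHPP came next in the fold. The NELFE peak (chr6:31958864-31959028), at the start of a subunit of the negative elongation factor that pauses RNA polymerase II, held 36 ZHX2 and 23 Mut4 reads, a scaled ratio of 1.37 (0.774 to 2.37). The LHPP peak (chr10:124461846-124462006), at a phosphatase gene, held 17 and 12, with 1.51 (0.659 to 3.36). The ZNF414 peak lay in an intron 115 bp from the start of that zinc-finger gene, with 33 and 20 and a ratio of 1.30 (0.706 to 2.33). For none of these did the interval leave 1.

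A middle group had similar unscaled reads in both libraries. TMEM39B held 18 and 18, with a scaled ratio of 2.14 (1.05 to 4.36). SURF6, whose product works in the nucleolus in ribosome assembly, held 17 and 18, with 2.27 (1.10 to 4.68). RPN2, a subunit of the complex that attaches N-glycans in the endoplasmic reticulum, held 18 and 21, with 2.50 (1.27 to 4.97). TMUB2 held 27 and 30, and CROCCP2, a pseudogene copy of the rootletin gene CROCC, held 36 and 40. Their ratios came close to the size ratio itself, which is what equal unscaled reads give.

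TUFM, the mitochondrial elongation factor that brings aminoacyl-tRNA to the ribosome, held 20 ZHX2 and 25 Mut4 reads, a ratio of 2.68 (1.43 to 5.08). TMED4, a cargo receptor of the early secretory pathway, held 22 and 27, with 2.63 (1.44 to 4.84). ZNF444 held 24 and 31, with 2.77 (1.57 to 4.92). NCAPD3, a subunit of condensin II, which compacts mitotic chromosomes, held 22 and 32, with 3.11 (1.75 to 5.63). In these 4 the Mut4 reads exceeded the ZHX2 reads by 5 to 10, and adjusted p-values from the authors' deposited table were 0.0742 for TMED4, 0.0295 for ZNF444 and 0.00833 for NCAPD3.

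The next 5 promoter peaks named had larger ratios and fewer ZHX2 reads. POP7, a protein subunit of the RNA-processing enzymes RNase P and RNase MRP, held 6 and 27 (chr7:100706065-100706285), a ratio of 9.64 (3.90 to 28.5) and the authors' deposited table gave it an adjusted p of 2.2e-05. HINFP, a zinc-finger activator of histone H4 genes, held 12 and 33 (chr11:119121144-119121348), with 5.89 (2.96 to 12.5). FOXRED2, a flavoprotein of protein quality control in the endoplasmic reticulum, held 10 and 20 (chr22:36507059-36507213), with 4.28 (1.91 to 10.2). PROSER3 held 11 and 24, with 4.67 (2.2 to 10.6), and CD320, the receptor for vitamin B12 bound to transcobalamin, held 12 and 21, with 3.75 (1.76 to 8.36). Over these 5 genes the Mut4 reads ran from 20 to 33 and the ZHX2 reads from 6 to 12. The genes were grouped by ratio, some of them picked after their values were seen, so nothing is read from the lower ZHX2 reads. Other promoter peaks lay between the groups in ZHX2 reads, such as BNIP3L with 13 and 18 (ratio 2.96) and MIB2 with 16 and 30 (ratio 4.02).

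The lowest promoter peak was at USP17L23, a member of a multicopy family of deubiquitinases, 471 bp upstream of the start (chr4:9271811-9271975). It held 0 ZHX2 and 24 Mut4 reads, a ratio whose exact lower limit is 12.9. Setting ZHX2 to a rough upper limit of 3 reads (5.34 CPM) and taking the Mut4 reads without error gives 17.1. The family's copies are nearly identical, so reads of 1 copy can align to another and the position is uncertain. AC084121.13, also annotated as coding, held 2 and 37, with a ratio of 39.6 (10.2 to 339). FP236383.9, an unclassified transcript on chromosome 21, had the most Mut4 reads of any promoter short peak, 103 against 37 in ZHX2 (chr21:8420379-8420541), a ratio of 5.96 (4.06 to 8.93).

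**Figure D4:**
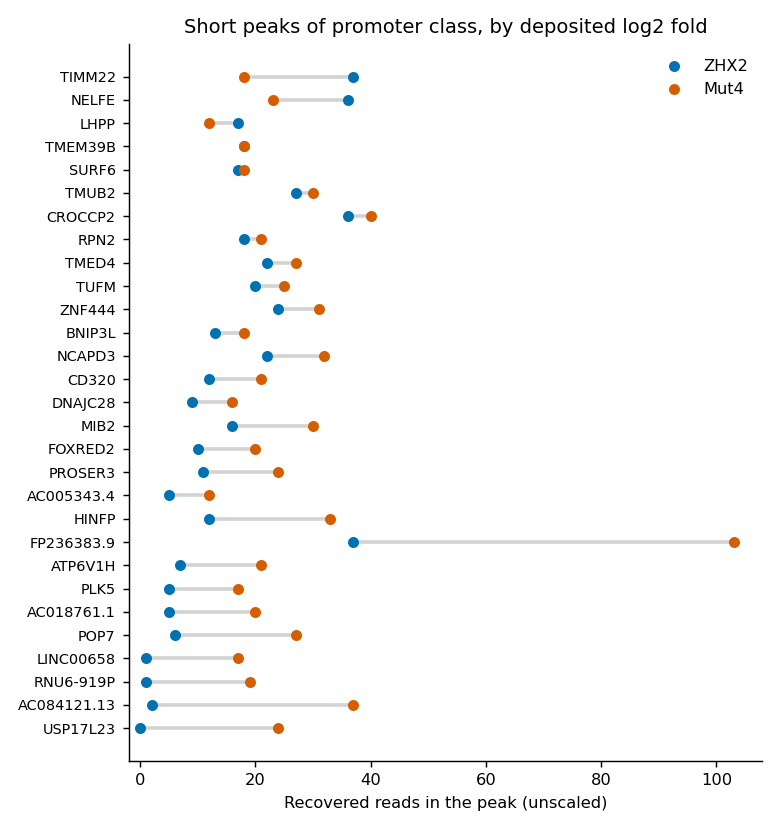
Recovered unscaled reads (horizontal) in ZHX2 (blue) and Mut4 (orange) at each of the 29 promoter-class short peaks, ordered from the lowest log2 fold at the bottom to the highest at the top. ZHX2 exceeds Mut4 at TIMM22, NELFE and LHPP, the points coincide at TMEM39B, and FP236383.9 stands out with 103 Mut4 reads.

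Away from promoters the lowest ZHX2 reads and the highest reads of either library were both found. ZHX2 was at 0 in 7 short peaks, of which 6 were intronic or intergenic. The largest of them lay 1033557 bp from its nearest start, that of DCUN1D4 (chr4:50809365-50809521), with 38 Mut4 reads, a ratio with an exact lower limit of 21 (27.1 with ZHX2 set to 3 reads). Next was a peak nearest to the pseudogene AC131274.3 (chr17:22855000-22855156), with 27 reads and a lower limit of 14.6 (19.3 with ZHX2 set to 3 reads). The other 4, nearest to AC091114.1, LINC02680, LINC02163 and RNU6-937P, held 13 to 16 Mut4 reads, with lower limits of 6.53 to 8.26 (9.28 to 11.4 with ZHX2 set to 3 reads). Neither centromere positions nor a genome was used. Whether the peaks nearest to DCUN1D4 and AC131274.3 lie in repeated DNA, where positions are uncertain, was therefore not assessed.

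Several short peaks with few ZHX2 reads were of intron class and had a coding gene as the nearest. That gene need not be the one that holds the intron. One lay 19295 bp upstream of the start of MMEL1, a membrane metallopeptidase gene (chr1:2652231-2652392). It held 5 ZHX2 and 48 Mut4 reads, a ratio of 20.6 (8.22 to 66.2). An intergenic peak nearest to the pseudogene AC012616.1 on chromosome 19 held the same reads. An AL096828.2 peak on chromosome 20, at a transcript end, held 1 and 22, with 47.1 (7.61 to 1944), and an AC023141.13 peak on chromosome 7 held 2 and 36, with 38.5 (9.92 to 330). The peak nearest to KCNH2, the cardiac potassium channel gene hERG, had 1 and 13 reads at a transcript end. An intron-class peak 1344 bp upstream of the start of CAMK2B, a calmodulin-dependent kinase gene of neurons, had 3 and 17. The intervals of these ratios are wide, because the ZHX2 side rests on 1 to 5 reads.

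The strongest short peaks lay far from starts or beside repeated genes. The one nearest to AC069061.1 (chr17:26603716-26603911), 377881 bp from that start, held 1466 ZHX2 and 1495 Mut4 reads, a ratio of 2.18 (2.03 to 2.35). The one nearest to EMB (chr5:49599504-49599768), which encodes the cell adhesion protein embigin, lay 812362 bp away with 192 and 368 reads, a ratio of 4.10 (3.44 to 4.91). Both were strong in the ZHX2 library too and were listed as Mut4-only. At AC069061.1 the unscaled reads of the libraries differed by 29. Whether these peaks, or the AC023141.13 peak above, lie in repeated DNA near a centromere was not assessed, so their positions may be uncertain.

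Short peaks with many reads had DUX4 and its copy DUX4L26 as the nearest genes. DUX4 is a double-homeobox activator of early embryonic genes, encoded within a tandem repeat near the end of chromosome 4 and silenced in most adult tissues. The intron-class peak nearest to DUX4 (chr4:190179551-190179728) lay 2478 bp upstream of its start. It held 240 ZHX2 and 525 Mut4 reads, a ratio of 4.68 (4.01 to 5.48). DUX4L26, a pseudogene copy on chromosome 3, had an exonic peak (chr3:75669102-75669397) with 36 and 280, a ratio of 16.7 (11.7 to 24.3), and the authors' deposited table gave it an adjusted p of 9.3e-36. A peak with fewer reads, 10 and 26, lay 128285 bp from another copy, DUX4L37 on chromosome 20. The Mut4-only DUX4 peak of 321 bp just outside the limit lay 1356 bp from the short one. Copies of this repeat are near-identical, so the split of reads between them is uncertain. The peaks at DUX4 and DUX4L26 cannot be taken as independent sites.

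On chromosome 21, between positions 8233126 and 8420541, 3 short peaks lay in a stretch whose annotated genes include a ribosomal RNA gene. The FP671120.11 peak held 13 ZHX2 and 110 Mut4 reads, a ratio of 18.1 (10.2 to 35.1), and lay 804 bp from a longer Mut4-only peak. The peak nearest to RNA5-8SN3, a 5.8S ribosomal RNA gene, held 11 and 58, with 11.3 (5.87 to 23.9). The FP236383.9 promoter peak is the third. Ribosomal DNA is present in many copies, so the position of these reads is uncertain too.

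Pseudogenes of other families were also nearest to short peaks, with few or many reads. ROCK1P1, a partial copy of the kinase gene ROCK1 on chromosome 18, held 125 and 221 (chr18:109832-110031), with 3.79 (3.03 to 4.75), 245 bp from a longer Mut4-only peak. FRG1GP on chromosome 22, with its start 89647 bp away, was the nearest gene to a peak with 8 and 48, with 12.8 (6.02 to 31.4). It was also nearest to 4 longer peaks. AC131274.3 was nearest to 3 short peaks, the most of any gene, with 0 and 27, 3 and 20, and 22 and 65 reads. These lay 150663, 340018 and 364424 bp from its start, and AC131274.3 was also nearest to 10 longer peaks. The FTLP17 peak, 309639 bp from a pseudogene of the ferritin light chain on chromosome 1, held 3 and 20. AC215524.1 on chromosome 4 held 22 and 14, a ratio of 1.36 (0.645 to 2.79).

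Short peaks lay on 20 of the 22 chromosomes, with none on 14 and 15. Chromosome 7 held 27 (20.3%, 13.8% to 28.1%), against 609 of the longer peaks (7.21%, 6.67% to 7.78%). These 27 were spread from position 2261857 to 158089786, and 16 lay in introns, 8 between genes, 2 in promoters (POP7 and TMED4) and 1 at a transcript end. Outside promoters chromosome 7 held 25 of 104 short peaks (24.0%, 16.2% to 33.4%), against 8.86% of longer ones. In promoters it held 2 of 29 (6.90%, 0.846% to 22.8%), against 6.02%.

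The chromosome 7 short peaks were thin, with medians of 3 ZHX2 reads (range 1 to 22) and 17 Mut4 reads (range 12 to 84) and a median log2 fold of -3.50. Longer peaks of chromosome 7 had a median log2 fold of -0.16. Chromosome 20 held 13 (9.77%, 5.31% to 16.1%) against 4.11%, and chromosome 21 held 7 (5.26%, 2.14% to 10.5%) against 1.44%. Chromosome 6 held 1, the NELFE peak (0.752%), against 5.26%. Copy number of these chromosomes in the DB cells of each arm was not measured in the values used here, and its part in these shares was not tested.

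**Figure D5:**
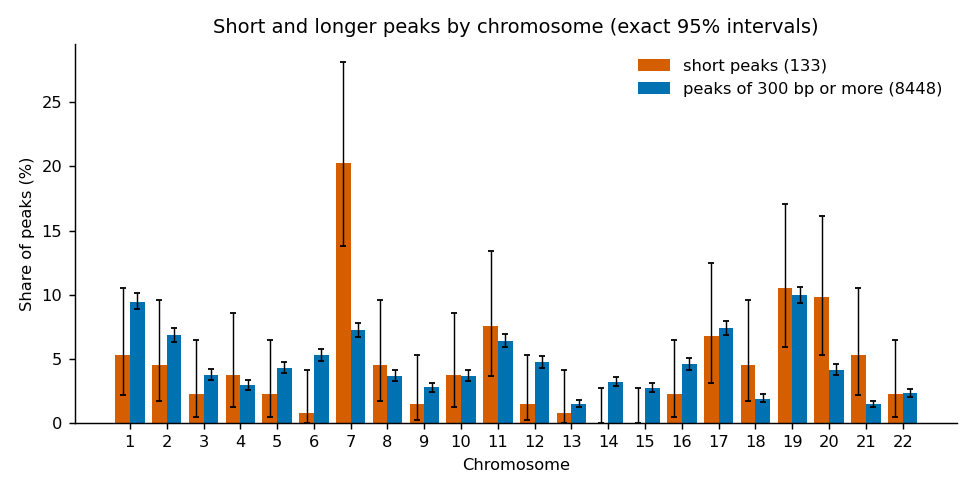
Share of short peaks (orange, of 133) and of peaks of 300 bp or more (blue, of 8448) on each of chromosomes 1 to 22 (vertical, %); bars start at 0 and error bars are exact 95% intervals of counting. Chromosome 7 holds 20.3% of the short peaks and 7.21% of the longer ones.

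Distances to other peaks differed by class. The median distance to the nearest longer peak was 110261 bp (quartiles 19430 and 277853), against 41610 bp between longer peaks. It was 21994 bp for promoter short peaks, against 46762 bp for longer promoter peaks, and 164993 bp for the other short peaks. Within 10000 bp of a longer peak lay 20 (15.0%, 9.43% to 22.3%), against 23.7% of longer peaks (22.7% to 24.6%), and the neighbour was ZHX2-only for 16, Mut4-only for 4 and common for none. In promoters the share within that distance was 20.7% of short peaks (7.99% to 39.7%) and 19.4% of longer ones (18.3% to 20.5%). The short peaks closest to a ZHX2-only peak were at PLK5 (210 bp), PROSER3 (699 bp), MEX3C (719 bp), AP002784.1 (998 bp), AC018761.1 (1349 bp) and ZNF414 (2053 bp). At these genes the Mut4-only call and the ZHX2-only call lay side by side at 1 locus.

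Short peaks seldom lay near each other. Only 4 were within 10000 bp of another, in 2 pairs on chromosome 7. The first pair lay between CICP8 and AC093392.2 (positions 56370724 to 56373711), with 9 and 14 reads in 1 peak and 11 and 84 in the other. The second lay in an intron of HIPK2 (139638311 to 139644525), a nuclear kinase gene, with 2 and 13 reads in 1 peak and 7 and 17 in the other. Introns of PTPRN2, a phosphatase-like protein of secretory vesicles, held 3 short peaks with 2 and 17, 3 and 12, and 3 and 19 reads, although for 2 of them the nearest start was that of a long non-coding RNA. The 133 peaks were assigned to 129 genes, of which 34 also had a longer peak.

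No short peak lay at SLC3A2, the cystine transporter subunit named in the study's title, or at ZHX2 itself. Of 143 genes on 9 lists, covering ferroptosis and redox control, amino acid stress with ATF4, ribosomal proteins, lymphoma and germinal centre genes, B cell identity, markers of T and myeloid cells, long genes of neurons, and ZHX and NFY factors, none was the nearest gene of a short peak. A longer peak was assigned to 69 of them. The lists hold few genes beside the whole annotation, so a count of 0 says nothing beyond these genes.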

How the data were processed

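DB cells of 2 arms gave 1 ChIP and 1 input library each, grouped by the titles of the labels. The submitters' processing notes name hg38 with MACS2 2.2.6, BWA 0.7.17, HOMER, Picard 2.22.2-0, deepTools 3.4.3, MultiQC 1.8, FastQC 0.11.9 and Trim Galore 0.6.4. Their roles and settings, and the test behind the deposited table, were not given in the sources used here. Per the file headers, the authors' table holds for each peak a log2 fold and a log2 CPM, a p-value raw and adjusted, and the peak's position, length in bp, group and annotation. A positive log2 fold means more signal in ZHX2. Every column of the table could be assigned, and 0 were unmapped.

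Whole reads per library were solved from the authors' log2 CPM and log2 fold with prior counts and a dispersion of 0.05. The priors were shared by library size. They summed to 0.25 reads over both libraries for the fold and averaged 2 reads per library for the CPM. Both values were given back in 8871 of 8871 peaks (100%), with reads whole within 1e-06, and the step was tested on simulated data. Scaled sizes were the totals over listed peaks, 541900 and 271694, times 1.04 and 0.965. Folds are therefore relative to listed peaks, and the depth elsewhere is unknown. For 0 reads in ZHX2, 3 reads (5.34 CPM) were also set as a rough upper limit. That setting is not an end of the exact intervals, and it gave larger ratios than their lower limits. Intervals are Clopper-Pearson at 95%.

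Peak length equals end minus start in every row, so starts were taken as counting from 0 when RefSeq windows were cut, and regions are otherwise printed with the deposited start. No genome was used. The members, gene lists, motifs and named peaks were chosen with earlier results of these data known. The named peaks were the largest and smallest log2 folds, the strongest, shortest and longest, those of genes with several, the closest pairs and the strongest promoter peaks. Peaks at HINFP, POP7, TUFM, PROSER3, CD320, KCNH2, CAMK2B, PTPRN2, on chromosome 21 and nearest to ROCK1P1, FRG1GP and DUX4L37 were added after their values were seen. Python 3.11.15, numpy 2.4.6, pandas 2.3.3 and scipy 1.17.1 were used. Alternatives changed the length limit, chromosomes, signal, merging, scaling and thresholds.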

Additional observations from a re-analysis of the deposited data

How the results depend on the processing

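Of 82 recomputed values, 69 stayed within their limits and none changed direction. With reads left unscaled (0.5 reads added), the median log2 fold was -2.04, 4.51% of short peaks had a positive fold, and 1 peak, TIMM22, lay past 2-fold higher in ZHX2. Where short peaks below their median signal were dropped, the median log2 fold was -2.57, 62 were past 2-fold lower, 51 passed the adjusted p, 37.3% were in promoters and 46.3% lay within 1000 bp of a start; the smaller counts follow from 67 peaks being kept. With X, Y and contigs included, 20% lay within 1000 bp of a start and reads were 4707 in ZHX2 and 11748 in Mut4. A distance of 5000 bp gave 46.6%. Without the strongest peak, an alternative added after seeing the data, ZHX2 reads were 1550. Centromere positions were not used here, so chromosomes 13, 14, 15, 21 and 22 were left out instead. With 1 library per arm none could be left out. No paired analysis was possible because each arm has 1 ChIP library and no test was made.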

Other observations

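Beyond chromosomes 1 to 22 the table listed a further 52 peaks shorter than 300 bp, so that 185 of its 210 Mut4-only peaks (88.1%, 82.9% to 92.1%) were short. Limits to the values given are few but broad. Peak length, group and fold come from the same libraries, and the sources used here give no settings of peak calling. A peak marked as Mut4-only can hold more unscaled ZHX2 reads than Mut4 reads, as at TIMM22, so the group names a call and not the absence of reads. Reads in repeated DNA have uncertain positions, and input reads there were not used here.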
